A study of Mus musculus with 5 samples.

Results

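The mouse microRNAs mmu-miR-335-5p, mmu-miR-338-3p, mmu-miR-135a and mmu-miR-190, named without the mouse prefix from here on, were the 4 members described, of 598 mouse microRNAs probed on the array. They were picked by name because their levels stood far apart between the inguinal and the epididymal white fat depots, and the question was where brown fat and the muscles stand. Values for inguinal against epididymal fat therefore chose the members and are given only as a description. The study measured mature microRNA in total RNA of 5 tissues of C57BL/6 mice in postnatal month 2 to 3. The tissues were brown adipose tissue, the inguinal and epididymal white depots, and the gastrocnemius and soleus muscles, all without a stated treatment or genetic change. Each was hybridised once to a 1-colour miRCURY array, whose capture probes contain locked nucleic acids, with the sample labelled in Cy3. The number of animals behind each RNA, and whether any were pooled, is not stated in the labels. With 1 array per tissue no difference has a replicate check, so ratios between arrays are given without any test or p-value.

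A microRNA is cut from a hairpin precursor and guides the silencing complex to messenger RNAs that pair with its seed, the bases near its 5′ end. Many microRNAs lie inside a host gene and can be transcribed with it. miR-335 lies in an intron of Mest, an imprinted gene whose transcript is known to rise when white fat expands. miR-338 lies in an intron of Aatk, a kinase gene active in neurons, and is known for its part in oligodendrocyte maturation. miR-190 lies in an intron of Tln2, which encodes the muscle and brain form of the adhesion protein talin. miR-135a comes from more than 1 locus and has been reported to hold back adipocyte formation in mouse preadipocytes by targeting Apc.

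The mature sequences below are shown because the 4 members were read by separate probes and, by sequence, are not relatives of each other. They come from RefSeq on mouse build GRCm38.p6. Of the 4 names, 2 matched a present RefSeq name, and miR-135a and miR-190 were matched as the older names of miR-135a-5p and miR-190a-5p. Capitals mark the seed, bases 2 to 8 from the 5′ end.
miR-335-5p: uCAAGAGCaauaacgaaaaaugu
miR-338-3p: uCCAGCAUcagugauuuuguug
miR-135a-5p: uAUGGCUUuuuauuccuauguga
miR-190a-5p: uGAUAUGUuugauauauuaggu
miR-190b-5p: uGAUAUGUuugauauuggguug
The 4 members had 4 distinct seeds. Among 1679 mature microRNAs of the table, the seeds of miR-335-5p, miR-338-3p and miR-135a-5p each belonged to 1 name. That of miR-190a-5p was shared with miR-190b-5p. The table holds no mature entry for miR-135b-5p, a relative of miR-135a, so the count for the miR-135a-5p seed leaves that relative out. miR-190b-5p is printed because it carries the same seed and the same first 15 bases as miR-190a-5p, yet its probe was under the detection floor on every array. All 4 members were poor in G and C, from 22.7% for miR-190a-5p through 30.4% for both miR-335-5p and miR-135a-5p to 40.9% for miR-338-3p.

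The genes were spread over several chromosomes. The mature miR-335-5p was placed at chr6:30741314-30741336 on the plus strand, inside the span of Mest on the same strand. The mature miR-338-3p was placed at chr11:120014781-120014802 on the minus strand, inside the span of Aatk, also on the minus strand. miR-190a-5p was placed at chr9:67236700-67236721 on the minus strand, inside the span of Tln2. miR-135a-5p is encoded at 2 loci with the same mature sequence. One is chr9:106154140-106154162 on the plus strand, inside the span of the noncoding gene D030055H07Rik and, on the opposite strand, of Glyctk. The other is chr10:92072141-92072163 on the minus strand, outside the span of any other gene of the table. The array cannot tell these loci apart.

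Per the file headers, each probe had 4 spots, and the deposited value is the median of the spots after background subtraction. A normalized intensity is that value divided by the median of that array, taken over microRNAs above 50 units, so it is a multiple of that median. These medians ran from 396 units on epididymal fat to 467.75 on soleus. The floor for detection was 50 background-subtracted units, reached by 148 to 170 mouse probes on an array. The highest reading was 2.5 units among empty spots and 6 units among negative controls. Of the 20 values of the 4 members, 16 were detected. Spot ranges and spot standard errors cover noise between the spots of 1 array, not animals, extraction or labelling. The spot SD over detected member values ran from 0.07 to 0.50 on the log2 scale, with a median of 0.14. In whole tissue, fewer cells of a type and less of a microRNA per cell cannot be told apart.

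The tissue labels were set beside microRNAs known from these tissues. The lists were chosen with earlier results of these data known, so the values are a description and not a test of the labels. Muscle miR-206 stood at 2989.5 units on gastrocnemius and 5337.5 on soleus, and at 103 on brown, 2 on inguinal and 2.5 on epididymal fat. All 7 microRNAs of a brown adipocyte list were detected on brown fat, with a summed normalized intensity of 24.6 against 5.02 on inguinal and 8.06 on epididymal fat. Muscle microRNAs were present in brown fat too, with 4 of 7 detected and a summed normalized intensity of 6.50, against 0.491 in inguinal fat, 0.369 in epididymal fat, 36.0 in gastrocnemius and 54.7 in soleus. Their part in the brown fat values of the members was not tested.

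miR-335-5p was highest in epididymal fat, intermediate in the muscles, and lowest in brown and inguinal fat. Its normalized intensity was 3.52 in epididymal fat, with spots from 3.13 to 3.64. In gastrocnemius it was 2.03 (spots 1.88 to 2.11) and in soleus 1.56 (1.35 to 1.68). Brown fat stood at 0.778 (0.711 to 0.893) and inguinal fat at 0.633 (0.568 to 0.723). Neighbours in this order had separate spot ranges, except that brown and inguinal fat overlapped. The order of the first 3 tissues was the same under the deposited scaling and 6 others, while brown and inguinal fat changed places under 4 of those 6.

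miR-190, for which human cell studies have reported targeting of the Akt phosphatase PHLPP1, was high in gastrocnemius and epididymal fat and low in brown and inguinal fat. Its normalized intensity was 0.945 in gastrocnemius (spots 0.829 to 0.991) and 0.780 in epididymal fat (0.735 to 0.879). Soleus stood at 0.510 (0.470 to 0.532). Brown fat was at 0.293 (0.229 to 0.310) and inguinal fat at 0.266 (0.226 to 0.333). The spot ranges of gastrocnemius and epididymal fat overlapped, as did those of brown and inguinal fat, and soleus lay apart from all others. Epididymal fat came before gastrocnemius under 3 of 6 other scalings, and inguinal before brown fat under 5 of 6.

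miR-338-3p ran the opposite way between the white depots, and its level in brown fat and both muscles lay between them. Its normalized intensity was 0.944 in inguinal fat, with spots from 0.621 to 1.17. Gastrocnemius followed at 0.684 (0.581 to 0.792), brown fat at 0.466 (0.435 to 0.487) and soleus at 0.434 (0.325 to 0.740). On epididymal fat it read 43 units, with spots from 36 to 59, which is just under the floor, so only a bound is known there. Inguinal fat and gastrocnemius overlapped in their spots, as did soleus with each of inguinal fat, gastrocnemius and brown fat, whereas brown fat lay apart from gastrocnemius and from inguinal fat. Inguinal fat and then gastrocnemius came first under the deposited scaling and all 6 others, and brown fat and soleus changed places under 3 of the 6.

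miR-135a was detected in epididymal fat and soleus and was under the floor in the other 3 tissues. It read 223 units in epididymal fat, with spots from 122 to 251, and 90.5 in soleus, with spots from 57 to 106. Gastrocnemius read 16 units (spots 10 to 24), inguinal fat 15 (14 to 17) and brown fat 1 (0 to 3). The brown fat value is within the range of the negative controls, and those of inguinal fat and gastrocnemius are above it, yet values under the floor are given no order here. In normalized terms epididymal fat stood at 0.563 and soleus at 0.193, with separate spot ranges.

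**Figure D1:**
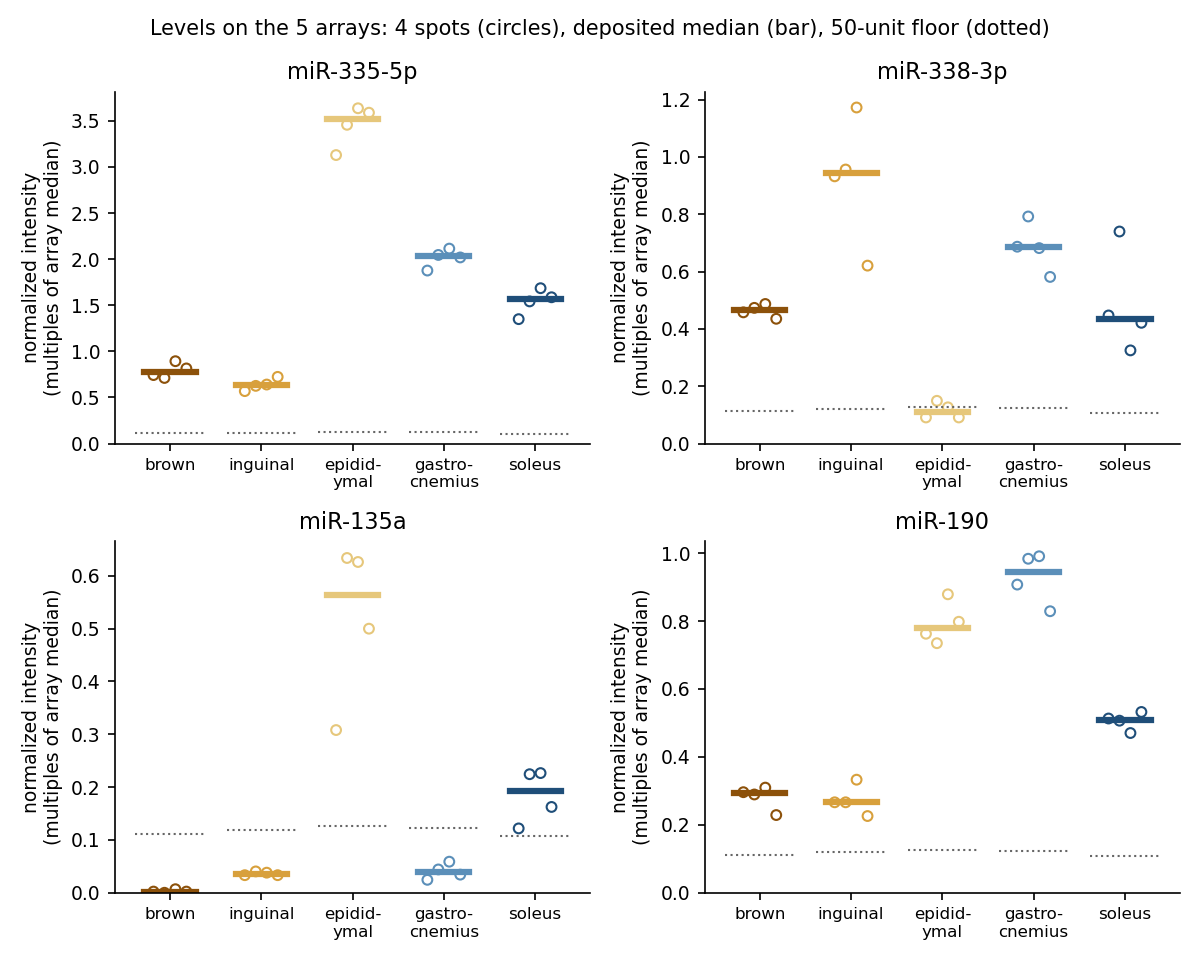
Normalized intensity (multiples of the array median, linear axis from 0) of each of the 4 microRNAs on the 5 arrays, with circles for the 4 spots, a bar for the deposited median and a dotted line for 50 units on that array. miR-335-5p and miR-190 sit low in brown and inguinal fat, miR-338-3p falls under the line in epididymal fat, and miR-135a is above it in epididymal fat and soleus.

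The contrast that chose the members gave the following values. Against inguinal fat, epididymal fat had 5.57-fold more miR-335-5p (spot SE 0.09 in log2 units) and 2.93-fold more miR-190 (spot SE 0.13). It had at least 4.74-fold more miR-135a and at least 7.48-fold less miR-338-3p. Each of the 6 other scalings gave less for miR-335-5p (3.72- to 5.24-fold), miR-135a (2.57- to 4.46-fold) and miR-190 (2.01- to 2.76-fold). For miR-338-3p the bound ran from 5.10- to 10.9-fold. With a floor of 100 units the bounds for miR-135a and miR-338-3p were 2.37- and 3.32-fold. In all, 17.4% of the 172 microRNAs detected on at least 1 of the arrays were 2-fold apart (5.81% higher and 11.6% lower in inguinal fat), from which nothing is read for members picked on this contrast. At the limit of 2-fold itself, miR-99a lay just inside at 2.02-fold and miR-24-1* just outside at 1.98-fold. The split of all calls, 10 higher and 20 lower in inguinal fat, was 25 and 7 with a 75th percentile scaling over probes detected on every array.

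Under the deposited scaling brown fat read close to inguinal fat for miR-335-5p and miR-190 and apart from it for miR-338-3p. miR-335-5p was 1.23-fold higher in brown than in inguinal fat (spot SE 0.10 in log2 units, as for all spot SEs given here). miR-190 was 1.10-fold higher (0.15), and the sign of these log2 ratios turned under 4 and 5 of 6 other scalings. With spike-in scaling brown fat was 1.59-fold below inguinal fat for miR-335-5p and 1.78-fold below it for miR-190. miR-338-3p was 2.03-fold lower in brown fat (0.20), just past 2-fold, and 1.91-fold lower with no scaling and 3.96-fold lower with spike-in scaling. miR-135a was under the floor on both arrays and has no fold. So 1 of 4 members was 2-fold apart, beside 24.4% of all 176 microRNAs considered, of which 14.2% were higher and 10.2% lower in brown fat. The split of 25 higher and 18 lower was 11 and 56 with spike-in scaling.

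Against epididymal fat, all 4 members differed at least 2-fold in brown fat, 3 lower and 1 higher, the directions in which inguinal fat differed from it. miR-335-5p was 4.53-fold lower in brown fat (spot SE 0.09), miR-190 2.67-fold lower (0.11) and miR-135a at least 4.87-fold lower. miR-338-3p was at least 3.69-fold higher. The epididymal array is shared with the contrast that chose the members, so these ratios are not independent of it. Over all 178 microRNAs considered, 23% were 2-fold apart, 10.1% higher and 12.9% lower in brown fat. The split of 18 higher and 23 lower was 10 and 79 with spike-in scaling. The 4 ratios stayed past 2-fold under all 6 other scalings, down to 4.02-fold for miR-335-5p, 2.37-fold for miR-190, 3.11-fold for miR-135a and 2.09-fold for miR-338-3p, and with spike-ins the first 3 were 7.99-, 4.70- and 8.60-fold. With a floor of 100 units in place of 50 the bound for miR-338-3p was 1.64-fold, so that the only call higher in brown fat was lost.

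Levels can be placed on a log2 scale on which inguinal fat is 0 and epididymal fat is 1, for the pair of members detected in both depots. Brown fat lay at 0.12 for miR-335-5p and 0.09 for miR-190. Soleus lay at 0.53 and 0.60, and gastrocnemius at 0.68 and 1.18. These positions hold for the deposited scaling. Over all 7 scalings brown fat ran from -0.29 to 0.16 for miR-335-5p and from -0.59 to 0.15 for miR-190, on both sides of the inguinal end. Gastrocnemius ran from 0.38 to 0.82 and from 0.73 to 1.72, and soleus from 0.22 to 0.61 and from 0.10 to 0.74.

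The arrays of brown fat, gastrocnemius and soleus were not used to choose the members. Between brown fat and gastrocnemius, miR-335-5p was 2.61-fold lower in brown fat (spot SE 0.08) and miR-190 3.23-fold lower (0.11). miR-338-3p was 1.47-fold lower (0.10), and miR-135a has no fold. The median log2 ratio of the 139 microRNAs detected on both arrays was 0.14, with 5th and 95th percentiles of -1.72 and 1.36, so the log2 ratios of -1.38 for miR-335-5p and -1.69 for miR-190 lay inside that range, near its lower end. In that comparison 2 of 4 members and 29.6% of 186 microRNAs were 2-fold apart, both members being lower in brown fat, as were 17.7% of all, with 11.8% higher. All calls split into 22 higher and 33 lower in brown fat, and into 12 and 40 with the 75th percentile scaling over probes detected on every array. Both members stayed past 2-fold under all 6 other scalings, down to 2.32-fold and 2.47-fold.

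Between brown fat and soleus the same pair was again lower in brown fat, by less. miR-335-5p was 2.01-fold lower (spot SE 0.10), at the limit, and 1.82-fold lower with normexp and quantile normalization. miR-190 was 1.74-fold lower (0.10) and miR-135a at least 1.67-fold lower. miR-338-3p stood 1.07-fold higher in brown fat (0.25), with overlapping spots and a sign that turned under 3 of 6 other scalings. That is 1 of 4 members beside 31.9% of 185 microRNAs, with 15.7% lower and 16.2% higher in brown fat. All calls split into 30 higher and 29 lower, and into 21 and 38 with the 75th percentile scaling over probes detected on every array. The count of members went from 0 to 2 over the alternatives, so no statement about soleus rests on it.

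Between the muscles, none of the 4 members was called 2-fold apart, beside 5.11% of 176 microRNAs, with 2.27% higher and 2.84% lower in gastrocnemius. With so small a share over all microRNAs, that count says little about the members. Gastrocnemius exceeded soleus by 1.30-fold for miR-335-5p (spot SE 0.08), 1.58-fold for miR-338-3p (0.26) and 1.85-fold for miR-190 (0.07). Spot ranges were separate for miR-335-5p and miR-190 and overlapped for miR-338-3p. miR-135a went the opposite way, at least 1.56-fold higher in soleus. All 4 of its gastrocnemius spots were at or under 24 units and all 4 soleus spots at or over 57. The 1.56-fold is a bound, so miR-135a is not shown to be under 2-fold. The 5th and 95th percentiles of the log2 ratio over the 159 microRNAs detected in both muscles were -0.70 and 0.73, and miR-190, at 0.89, lay beyond the upper one. All calls split into 4 higher and 5 lower in gastrocnemius, and into 2 and 8 with no scaling.

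Each white depot was also set against the muscles, on arrays of which 1 chose the members. miR-335-5p was lower in inguinal fat than in gastrocnemius by 3.21-fold and than in soleus by 2.47-fold, and higher in epididymal fat by 1.73-fold and 2.25-fold. miR-190 was lower in inguinal fat by 3.55-fold and 1.91-fold, and in epididymal fat 1.21-fold lower than in gastrocnemius and 1.53-fold higher than in soleus. The muscles thus lay between the depots for miR-335-5p, and soleus did for miR-190. Several of these sizes moved with the scaling. With spike-ins miR-335-5p in inguinal fat was 1.84-fold below gastrocnemius and 1.42-fold below soleus, and the ratio to soleus stayed past 2-fold under 2 of 6 other scalings. The excess of miR-335-5p in epididymal fat ran from 1.27- to 2.73-fold over gastrocnemius and from 1.80- to 3.54-fold over soleus. miR-190 in inguinal fat was 2.04-fold below gastrocnemius and 1.10-fold below soleus with spike-ins. In epididymal fat it ran from 1.22- to 2.41-fold over soleus, and its ratio to gastrocnemius changed sign under 3 of 6.

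miR-338-3p in inguinal fat was 1.38-fold above gastrocnemius and 2.18-fold above soleus, the latter with overlapping spots, and in epididymal fat at least 5.42-fold and 3.44-fold below them. miR-135a was at least 4.55-fold higher in epididymal fat than in gastrocnemius and 2.91-fold higher than in soleus (spot SE 0.32). With spike-ins miR-338-3p in inguinal fat was past 2-fold above gastrocnemius and 3.79-fold above soleus, and with no scaling the latter was 1.96-fold. The smallest bounds for miR-338-3p in epididymal fat over the scalings were 2.91-fold below gastrocnemius and 2.19-fold below soleus, and with a floor of 100 units the latter was 1.53-fold. For miR-135a the excess in epididymal fat ran over the scalings from 2.95- to 7.16-fold against gastrocnemius and from 2.29- to 4.58-fold against soleus. Members at least 2-fold apart numbered 2 for inguinal fat against gastrocnemius (36.1% of 180 microRNAs), 2 against soleus (38.6% of 184), 2 for epididymal fat against gastrocnemius (32.6% of 184) and 3 against soleus (35.8% of 187). By direction, the shares over all microRNAs were 14.4% higher and 21.7% lower in inguinal fat than in gastrocnemius, and 17.4% and 21.2% against soleus. In epididymal fat they were 17.4% higher and 15.2% lower than in gastrocnemius, and 21.9% and 13.9% against soleus. With spike-in scaling the splits of these calls went from 26 higher and 39 lower to 62 and 23, from 32 and 39 to 62 and 18, from 32 and 28 to 72 and 18, and from 41 and 26 to 73 and 15.

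**Figure D2:**
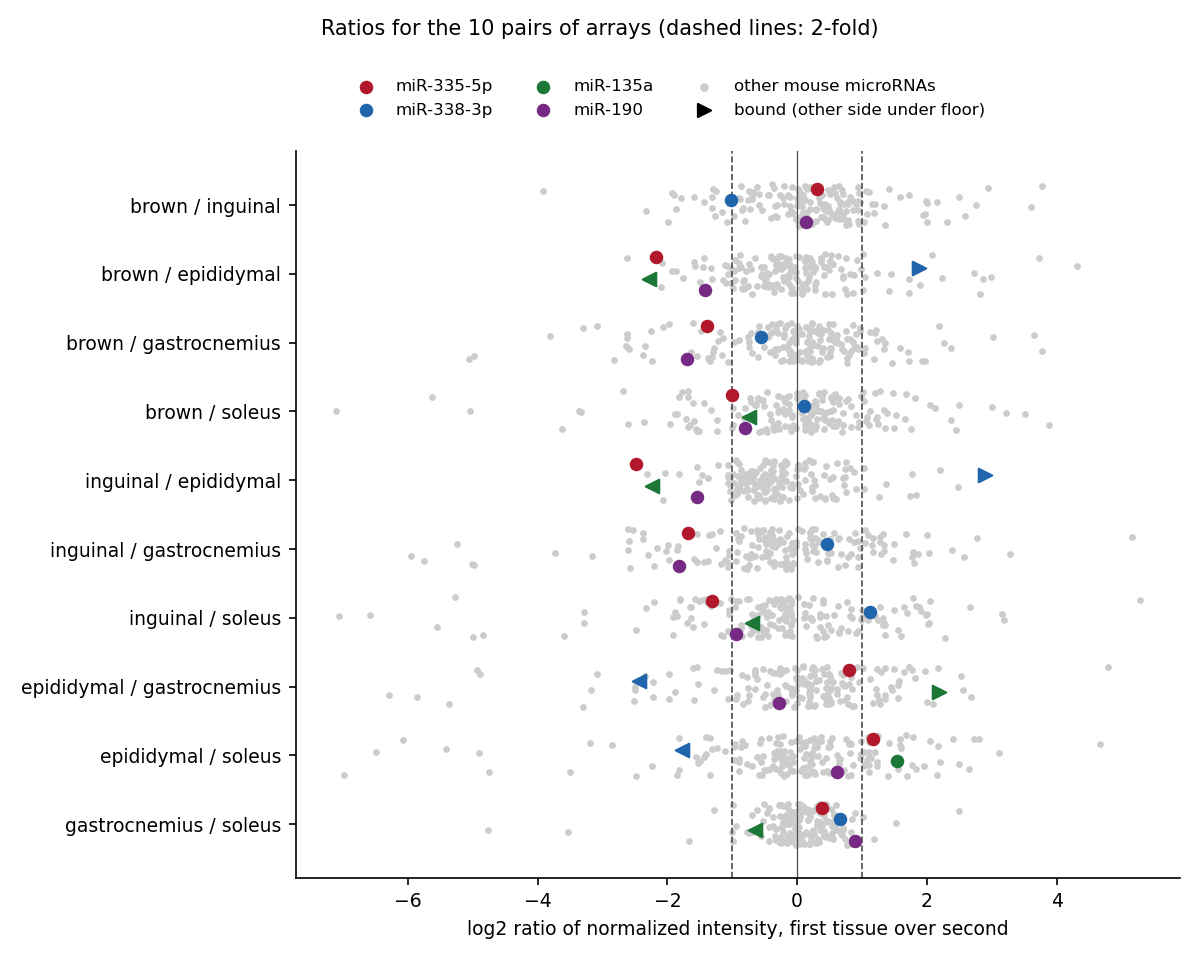
The log2 ratio of normalized intensity (first tissue over second) for the 10 pairs of arrays, with grey points for other mouse microRNAs, coloured circles for the 4 members and triangles where 1 side is under the floor and the ratio is a bound. Brown against epididymal fat shows the members on the same sides as inguinal against epididymal fat. Gastrocnemius against soleus shows them all drawn inside the dashed 2-fold lines, where the miR-135a triangle is a bound and could lie further out.

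Scaling moved whole arrays against each other. Relative to the deposited scaling, the median log2 ratio of all microRNAs detected on a pair of arrays shifted by -0.97 to 0.80 with spike-ins, by -0.46 to 0.55 with the 75th percentile over probes detected on every array, and by -0.24 to 0.17 with no scaling. Spike-in probes themselves read lowest on inguinal fat, at a median of 129 units, against 242.25 on brown fat and 250.875 on soleus. Taken relative to the median of all microRNAs of the pair, which a single scaling factor cannot move, miR-335-5p was lower in brown fat by a log2 ratio of -2.06 against epididymal fat, -1.53 against gastrocnemius and -1.20 against soleus, and stood at 0.04 against inguinal fat. For miR-190 the same values were -1.29, -1.84, -0.997 and -0.12. On this relative scale too brown fat was closest to inguinal fat for both. miR-338-3p was at -1.28 against inguinal fat, -0.70 against gastrocnemius and -0.10 against soleus.

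**Figure D3:**
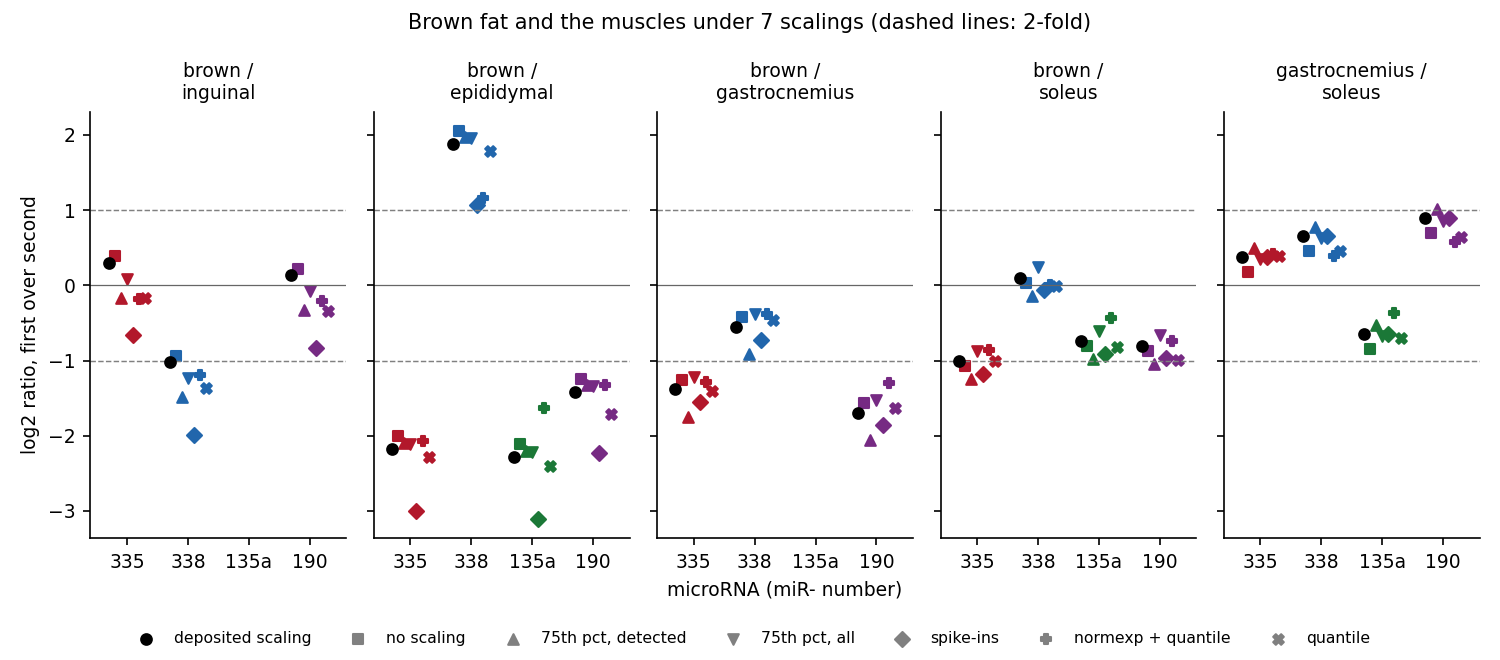
The log2 ratio of each member for 5 pairs of arrays under the deposited scaling (black circles) and 6 others (coloured symbols), with dashed lines at 2-fold. Brown against inguinal fat changes sign for miR-335-5p and miR-190, whereas every value of brown against epididymal fat stays beyond 2-fold.

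The authors' deposited table gives ratios with no floor, and for miR-135a these are far larger than the bounds. In the authors' deposited table miR-135a is 251-fold higher in epididymal than in brown fat, where the divisor is 1 unit, and 86.2-fold higher in soleus than in brown fat. In the authors' deposited table it is also 15.9-fold higher in inguinal than in brown fat, although both values are under the floor. For miR-338-3p the authors' deposited table has 8.69-fold between inguinal and epididymal fat, where the epididymal value is 43 units.

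The other arms of 3 precursors, and a relative each of miR-135a and miR-190, were not detected on any array. The other arms miR-335-3p, miR-338-5p and miR-135a* reached at most 2.5, 21.5 and 3 units. The relatives miR-135b and miR-190b reached at most 6 and 26 units. miR-190b read 26 units on soleus and 4 on gastrocnemius, where miR-190 had its highest value of 385.5 units. All miR-190b values are under the floor and have no order.

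By the nearest profile over the 5 arrays, among 176 other mouse microRNAs detected on at least 2 of them, miR-335-5p and miR-190 were close to each other. The measure was the root mean square difference of log2 levels, each centred on its own mean, with values under the floor raised to the lowest detected value. miR-190 was the nearest to miR-335-5p, at 0.37, followed by miR-331-3p at 0.53 and miR-135a at 0.57. The nearest to miR-190 were miR-541 and miR-30a* at 0.36, and then miR-335-5p. For miR-135a they were miR-34b-5p at 0.42, miR-130a at 0.46 and miR-99b at 0.52. miR-135a and miR-34b-5p were each detected on 2 arrays, with only epididymal fat in common, so most of both profiles is values raised to the floor. miR-541 was under the floor in brown and inguinal fat, and miR-30a* in inguinal fat. miR-338-3p had no profile as near, with miR-155 at 0.78 and miR-19b and miR-29b at 0.87. Here miR-155 was under the floor in brown and epididymal fat, and miR-338-3p in epididymal fat, so their likeness rests in part on raised values. That miR-335-5p, miR-190 and miR-135a lie near each other follows in part from how they were picked, since all were chosen as higher in epididymal fat.

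**Figure D4:**
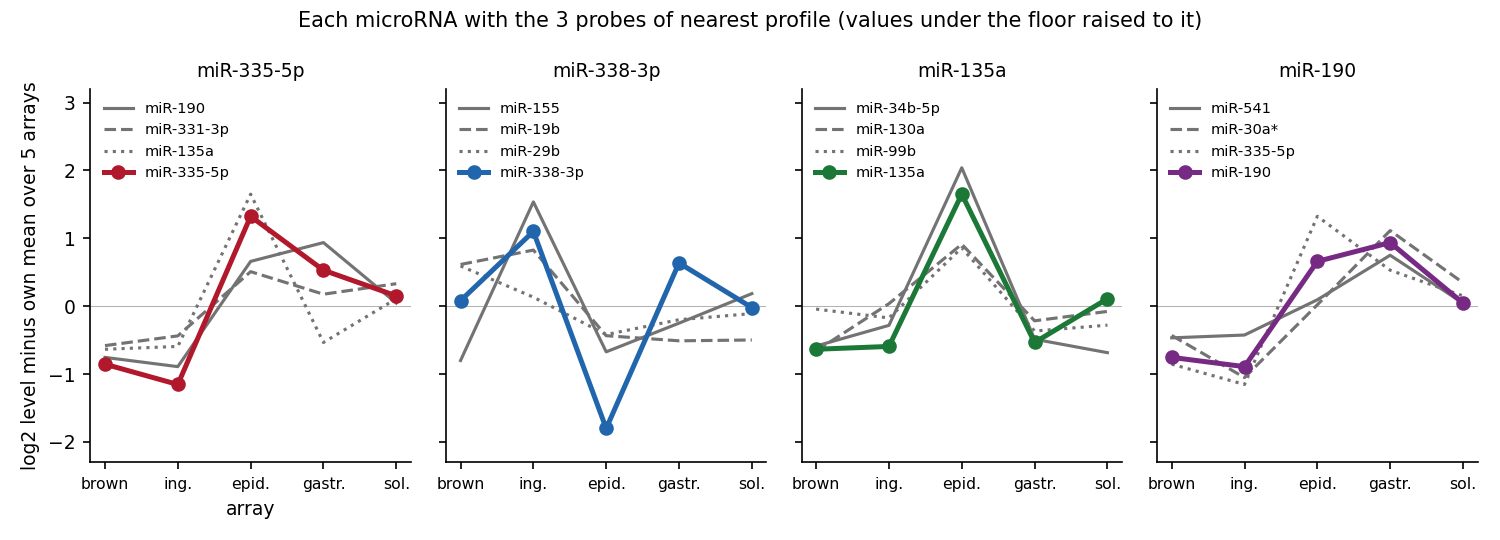
Log2 level minus its own mean over the 5 arrays for each of the 4 microRNAs (coloured) and the 3 probes with the nearest profile (grey), with values under the floor raised to it. miR-338-3p dips in epididymal fat further than its 3 neighbours, and miR-335-5p and miR-190 appear in each other's panels.

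Markers of other cell types differed between the white depots, and their part in the members' levels was not tested. Of 10 epithelial microRNAs, 5 were detected in epididymal fat, 1 in inguinal fat, 3 in brown fat, 0 in gastrocnemius and 1 in soleus, with summed normalized intensities of 2.48, 0.71, 2.87, 0.10 and 0.18. In brown fat miR-96 was detected, together with miR-182 and miR-203, which the brown adipocyte list also holds. miR-200a, miR-200b, miR-200c and miR-141 of that list read 90 to 197 units in epididymal fat, 13.5 to 40 in inguinal fat and at most 7.5 on the other arrays. Of 7 microRNAs of reproductive tract and ciliated epithelium, 2 were detected in epididymal fat, which were miR-34b-5p at 282.5 and miR-34c at 137.5 units. The summed normalized intensity of that list was 1.27 there and 0.10 to 0.25 elsewhere, and miR-449b and miR-449c read 0 in epididymal fat.

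The members can be set beside these 4 of the 10 epithelial microRNAs, called the markers here, on each array. The list itself set none of the 10 apart. Of the rest of the 10 listed, miR-203, miR-182 and miR-96 went the other way. They read 757, 264 and 210 units in brown fat and 287, 2 and 4 in epididymal fat. miR-429, miR-205 and miR-183 were under the floor on every array. In epididymal fat, with the markers at 90 to 197 units, miR-335-5p read 1395 units, miR-190 309 and miR-135a 223. In inguinal fat, with the markers at 13.5 to 40, they read 266, 112 and 15, and in brown fat, with the markers at 1.5 to 4.5, they read 347, 130.5 and 1. In gastrocnemius, with the markers at 0.5 to 4, they read 828.5, 385.5 and 16, and in soleus, with the markers at 2 to 7.5, they read 731.5, 238.5 and 90.5.

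Of 8 leukocyte microRNAs, 5 were at least 2-fold higher in inguinal than in epididymal fat, beside 5.81% of all. miR-223 stood at 3.41 and 3.39 in normalized intensity, and miR-146a and miR-146b did not reach 2-fold. This contrast chose miR-338-3p, and the list was chosen with earlier results of these data known, so the counts are a description. All 8 of the list were detected in inguinal fat and 6 in epididymal fat, with summed normalized intensities of 25.6 and 12.5, in which miR-142-3p, at 5061.5 and 2326.5 units, was the largest part. Brown fat stood at 6.46, gastrocnemius at 4.32 and soleus at 3.66, with 6, 6 and 7 detected, and no marker of the list was at 0 on any array. On the same arrays miR-338-3p stood at 0.944 in inguinal fat, under the floor in epididymal fat, and at 0.466, 0.684 and 0.434 in brown fat, gastrocnemius and soleus. The part of leukocyte RNA in these values was not tested. Of 10 neural microRNAs, listed because miR-338 is known from neural tissue, 1 was detected in inguinal, 0 in epididymal and 2 in brown fat, 1 in gastrocnemius and 2 in soleus. Their summed normalized intensity was lowest in epididymal fat at 0.28, with 0.48 in inguinal and 0.75 in brown fat, 0.945 in gastrocnemius and 1.47 in soleus, the muscle values coming mostly from miR-128 at 295 and 542 units. Stromal and smooth muscle, endothelial and red cell microRNAs were detected on all arrays but for miR-199a-5p in brown fat, at 47.5 units, and the endothelial sum was lowest in inguinal fat, at 6.30. The stromal sum was lowest there too, at 7.52, of which miR-143 gave 4.94, whereas 3 of its 5 microRNAs, miR-199a-3p/miR-199b, miR-199a-5p and miR-214, were lowest in brown fat and at least 2-fold higher in inguinal fat. Of 4 microRNAs that mark position along the body, all were detected in inguinal fat and both muscles and 2 in epididymal and in brown fat. Among them miR-196a read 177.5 units in inguinal fat, 3.5 in epididymal fat, 0.5 in brown fat, 465.5 in gastrocnemius and 329 in soleus. miR-137 and miR-9* of the neural list read at most 2.5 units on every array.

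**Figure D5:**
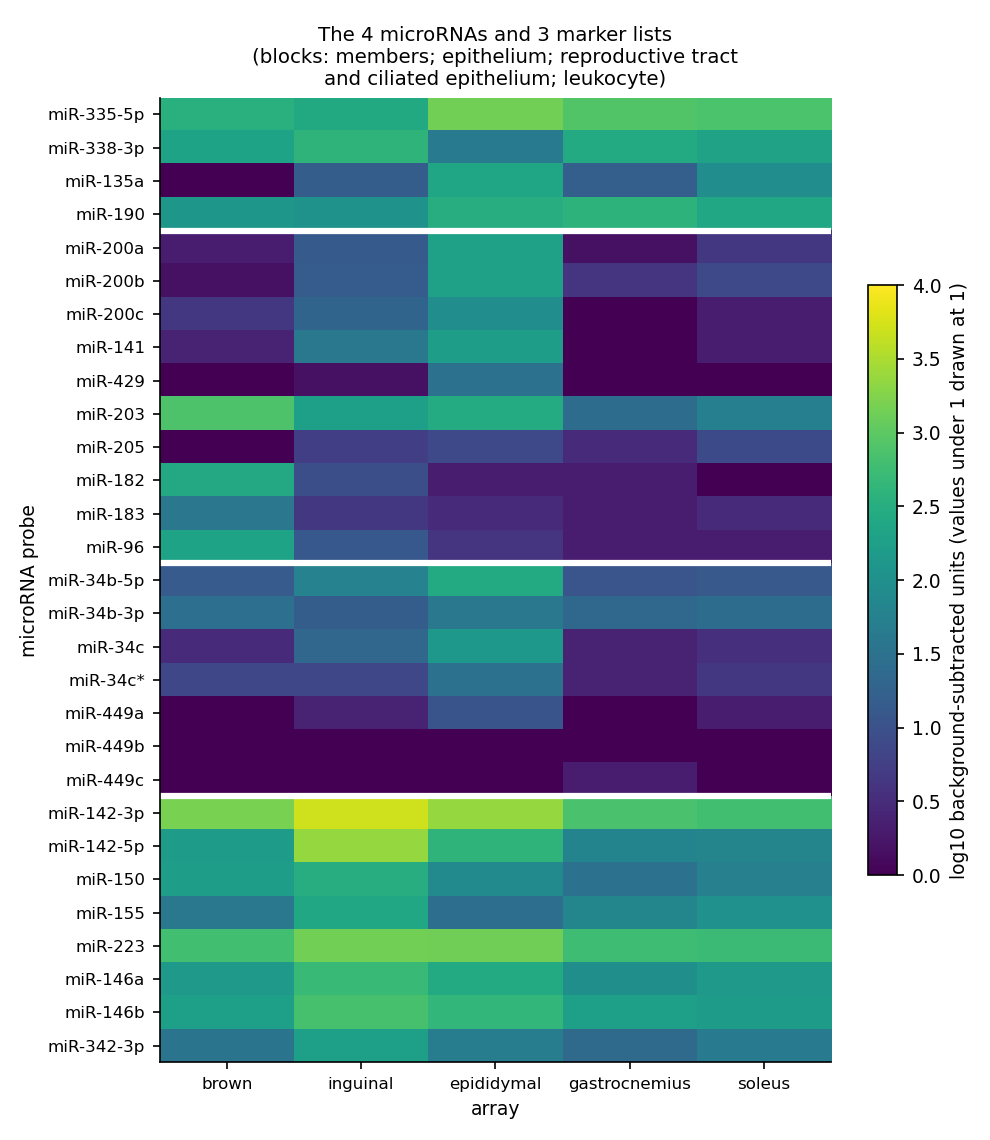
Heatmap of background-subtracted units (colour on a log10 scale, values under 1 drawn at 1) on the 5 arrays for the 4 microRNAs in the top block and, below, the epithelial, the reproductive tract and ciliated, and the leukocyte lists. The miR-200 and miR-34 rows are brightest in epididymal fat and the leukocyte block in inguinal fat, while miR-335-5p and miR-190 are bright in both muscles.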

How the data were processed

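The deposited tables hold, per the file headers, a background-subtracted intensity for every spot and the median of the 4 spots of a probe. Per the file headers, the authors divided it by a median over the microRNAs above 50 in all samples, which gives the deposited normalized value, a ratio to that median, and took a fold for each pair of arrays. The image analysis was not given in the sources used here. A separate value table held the same numbers, within 5e-09 over 1973 rows.

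From these, log2 ratios were taken for all 10 pairs and all 598 mouse probes with Python 3.11.15, pandas 2.3.3 and numpy 2.4.6. A value under 50 units was raised to the lowest detected value of its array, and the ratio is then a bound; with both under 50 there is none. The limit was 2-fold. Alternatives were 6 scalings (normexp with offset 50 used limma 3.58.1 in R 4.3.3), other floors and other summaries of spots. The step was run on simulated data with large changes and noise between spots only. That run does not bear on scaling between arrays or on ratios near 2-fold. Named microRNAs were the members, their relatives, the 3 nearest profiles and the marker lists. The members and lists were chosen with earlier results of these data known. Precision is limited by the number of arrays.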

Additional observations from a re-analysis of the deposited data

How the results depend on the processing

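Over 14 alternatives, 21 log2 ratios of single members that were past 2-fold kept their direction, and 15 of them stayed past 2-fold under all 6 other scalings; of 16 smaller ratios, 4 changed sign under some scaling. The number of members at least 2-fold apart moved for 4 pairs. For brown against inguinal fat it was 1, and 0 with no scaling and with the mean of log2 spots. For brown fat against soleus it was 1, with 2 under the 75th percentile over probes detected on all arrays, with no floor and without spot 4, and 0 under the 75th percentile of all mouse probes, normexp with quantile normalization, the mean of log2 spots and without spot 2. For inguinal fat against soleus it was 2, and 3 with no floor. It was 1 under the 75th percentile of all mouse probes, spike-ins, quantile normalization with or without normexp, and the mean of log2 spots. With no scaling this pair kept 2, where miR-338-3p was lost and miR-190 gained. For gastrocnemius against soleus it was 0, and 1 under the 75th percentile over probes detected on all arrays and with no floor. For the 6 other pairs the count held within 1.5 times, with calls lost, gained or exchanged in 4. Brown against epididymal fat went from 4 to 3 with a floor of 100. Epididymal fat against soleus went from 3 to 2 with no scaling, the 75th percentile over detected probes or a floor of 100, and to 4 with spike-ins. Epididymal fat against gastrocnemius went from 2 to 3 with spike-ins. Inguinal fat against gastrocnemius kept 2 with spike-ins, where miR-335-5p was lost and miR-338-3p gained. The cause of these moves was not tested. No paired analysis was possible because no tissue was measured on more than 1 array.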

Other observations

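Spots at the same position tended to be low together. For miR-335-5p spot 1, numbered in the order of the deposited spot table, was the lowest of 4 on 4 of 5 arrays, and for miR-135a on 2 of 2 arrays where it was detected. For miR-190 spot 4 was the lowest on 3 of 5 arrays and spot 3 the highest on 4 of 5. When ratios were taken spot by spot, a view chosen after the data were seen, miR-135a was 2.53- to 3.08-fold higher in epididymal fat than in soleus over the 4 positions, with a standard error of 0.06 on the log2 scale against 0.32 from the unmatched spots. miR-335-5p was lower in brown fat than in soleus at 4 of 4 positions, by 1.82- to 2.17-fold. Under the deposited scaling it was higher in brown than in inguinal fat at 4 of 4, by 1.13- to 1.40-fold. All positions of an array share its scaling, so they are no replicates of a direction. The sign of miR-335-5p between brown and inguinal fat turned under 4 of 6 other scalings. For miR-338-3p the positions spread widely between inguinal fat and soleus, from 1.29- to 3.61-fold, with all 4 higher in inguinal fat.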
